A study of Mus musculus with 19 samples.

Results

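Angiotensin II (Ang II) infusion for 24 h went with large differences, in either genotype or both, in 8 genes of the mouse suprarenal aorta. They belong to no familiar Ang II program: Gkn3, 2210407C18Rik, Unc5d, Olfr224, Ctxn1, Gm12840, AC160336.1 and Otud1. These 8 genes, of 20408 in the deposited matrix, were picked by symbol because their levels differed strongly between Ang II and saline, with no numerical threshold. All 8 passed the filter on low values. The size of the Ang II differences is therefore a description of the choice and carries no test. The comparison between genotypes was tested. It uses the same mice as the contrasts that chose the genes, so it is not independent of the choice.

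The mice were male, given as 8 weeks of age, on a C57BL/6 background, and all lacked the lipid-carrier gene ApoE (ApoE-/-). The paper gives that age for the start of tamoxifen, so the infusion came later, after days of injection and rest. The IKKβ-/- mice were SMA-CreERT2 Ikkβ Flox/Flox ApoE-/-, in which a Cre driven by the smooth muscle actin (Acta2) promoter deletes IKKβ in vascular smooth muscle cells (SMCs) after tamoxifen. The IKKβ+/+ mice were SMA-CreERT2 ApoE-/- littermates, which also carry the Cre and also received tamoxifen. Each genotype was infused through osmotic pumps with saline or Ang II, which the labels give as 500 to 1000 ng/min/kg and the methods, for these mice, as 1000 ng/min/kg. There were 5 IKKβ+/+ saline, 5 IKKβ+/+ Ang II, 4 IKKβ-/- saline and 5 IKKβ-/- Ang II mice, 19 in all, each sequenced as 1 library of poly(A) RNA from the whole vessel segment.

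Ang II is a peptide hormone that constricts arteries and, when infused into ApoE-/- mice, leads to abdominal aortic aneurysm. IKKβ, encoded by Ikbkb, is the kinase that releases NF-κB from its inhibitor. The 8 genes share no pathway. Gkn3 encodes gastrokine 3, a secreted protein with a BRICHOS domain, first known from the stomach and also used as a marker of arterial endothelium. Unc5d encodes a receptor for the guidance cues netrin and FLRT, Ctxn1 encodes cortexin 1, a small membrane protein abundant in cortical neurons, and Olfr224 encodes an odorant receptor. Otud1 encodes an OTU deubiquitinase, an enzyme that trims ubiquitin chains from proteins. 2210407C18Rik is a protein-coding gene without an assigned function, and Gm12840 and AC160336.1 are long intergenic noncoding RNAs (lincRNAs).

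In GRCm38, Olfr224 (chr11:58565856-58570553) and 2210407C18Rik (chr11:58608204-58616075) were neighbours, 37.7 kb apart on the minus strand with no other annotated tested gene between them. Their RefSeq promoters (GRCm38.p6, 250 bases before to 50 after the start) are shown because each held the palindrome TGACGTCA, the cAMP response element (CRE), here in capitals. The stretch is chr11:58570519-58570818 for Olfr224 and chr11:58613443-58613742 for 2210407C18Rik, both on the minus strand, and the TATAAA of 2210407C18Rik is in capitals as well. The start used for 2210407C18Rik lies inside its annotated span.
Olfr224: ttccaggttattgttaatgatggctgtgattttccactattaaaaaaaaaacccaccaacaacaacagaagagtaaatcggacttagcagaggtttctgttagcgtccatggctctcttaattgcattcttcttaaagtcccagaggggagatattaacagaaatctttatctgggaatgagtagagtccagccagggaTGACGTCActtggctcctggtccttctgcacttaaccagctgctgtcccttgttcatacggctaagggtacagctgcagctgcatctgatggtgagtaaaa
2210407C18Rik: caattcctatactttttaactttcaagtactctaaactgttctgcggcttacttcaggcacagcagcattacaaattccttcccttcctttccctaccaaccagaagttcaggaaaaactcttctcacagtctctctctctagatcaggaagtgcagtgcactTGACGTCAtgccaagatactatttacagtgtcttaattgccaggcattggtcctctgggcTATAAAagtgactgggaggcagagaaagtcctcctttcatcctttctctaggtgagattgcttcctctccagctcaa

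The CRE letters began 51 bases before the start of Olfr224 and 87 bases before that of 2210407C18Rik. They occurred in 1.79% of 32851 promoters of the same length, and in 0 of 4 promoters of Olfr330, Olfr329, Olfr328 and Trim58, which lie next to the pair. TATAAA, found 27 bases before the start of 2210407C18Rik, occurred in 13.6% of promoters. Promoter sequence was matched for 5 of the 8 genes (Gkn3, 2210407C18Rik, Olfr224, Ctxn1 and Otud1). Of the other motifs searched on both strands, the AP-1 site TGANTCA was in 0 of these 5 (7.81% of all promoters), and the NF-κB consensus was in 0 of 5 (4.51% of all). A match is a description of letters, and its absence says only that the letters are not in this window.

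The Otud1 promoter (chr2:19657481-19657780, plus strand) is shown because Otud1 was 1 of the 2 genes that differed between genotypes with saline. It held 33 CG pairs, against a median of 7 over all promoters, and was 70.3% G and C (median 52.7%). Its capitals mark the E-box CACGTG, 54 bases before the start, a motif present in 7.15% of promoters.
Otud1: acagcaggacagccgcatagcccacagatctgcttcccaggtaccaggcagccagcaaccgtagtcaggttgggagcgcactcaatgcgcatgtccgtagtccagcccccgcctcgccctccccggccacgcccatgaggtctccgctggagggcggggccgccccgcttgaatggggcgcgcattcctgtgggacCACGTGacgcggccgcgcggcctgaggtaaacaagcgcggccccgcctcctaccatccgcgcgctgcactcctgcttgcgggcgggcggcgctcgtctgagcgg

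The Ctxn1 promoter was of the same GC-rich kind, with 21 CG pairs and 66.3% G and C. Those of Gkn3, Olfr224 and 2210407C18Rik held 5, 4 and 2 CG pairs and were 42.7%, 43.7% and 44.0% G and C. The 2 promoters with the CRE were thus among the CG-poor ones.

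The lincRNAs Gm12840 (chr4:117700188-117700923, plus strand) and AC160336.1 (chr14:44544055-44637201, minus strand) lie on different chromosomes but resemble each other in sequence. AC160336.1 is annotated as a single exon of 93147 bases, and 1 stretch of it aligned to Gm12840 with 92.7% identity over 467 columns (25 mismatches and 9 gap columns). A part of that alignment without gaps is printed, chr4:117700649-117700768 of Gm12840 and chr14:44549778-44549897 of AC160336.1, with the 10 bases that differ in capitals.
Gm12840: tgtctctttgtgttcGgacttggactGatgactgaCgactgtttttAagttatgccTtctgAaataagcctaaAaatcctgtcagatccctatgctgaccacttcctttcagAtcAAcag
AC160336.1: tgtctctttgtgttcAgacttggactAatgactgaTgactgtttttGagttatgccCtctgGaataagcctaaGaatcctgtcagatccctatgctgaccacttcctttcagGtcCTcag

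Of the 544 windows of 84 bases (the read length) in Gm12840, 23.7% occurred identically in another transcript, either Gm20186 or AC160336.1. AC160336.1 shared 3.73% of its windows with 115 other genes, and Olfr224 shared 6.04%, mostly with neighbouring odorant receptor genes. The other 5 genes shared none. How reads that fit several genes were divided is not given in the sources used here, so the counts of both lincRNAs are uncertain to that extent.

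The libraries held 11382573 to 19906694 reads on genes. Ikbkb averaged 673 ± 78.6 normalized counts (mean ± SD) in IKKβ+/+ saline (n = 5) and 726 ± 46.3 in IKKβ+/+ Ang II mice (n = 5). In IKKβ-/- mice it averaged 515 ± 74.3 with saline (n = 4) and 548 ± 87.9 with Ang II (n = 5). The tissue also holds cells outside the reach of the Cre, and the source of the remaining counts was not tested. The smooth muscle markers summed to 321589 to 671223 normalized counts in every library. Beside them, smooth muscle markers rose with Ang II in IKKβ+/+ mice (4 of 10 tested, 1 without X2350, and none in IKKβ-/-) and adipocyte markers rose in IKKβ-/- mice (5 of 8 tested, 2 without X2401, and none in IKKβ+/+), and the part of either in the results was not tested. Stomach epithelium markers were absent from the matrix (0 of 8 genes listed), and mesothelium markers summed to at most 27.02. Each group has its own run of mouse numbers and no batch is stated, so a batch and a group cannot be told apart.

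Values below are DESeq2-normalized counts as deposited, and differences are on the log2(normalized count + 1) scale with the standard error (SE) of a limma fit over 14845 genes. In IKKβ+/+ mice the Ang II and saline groups did not overlap for 7 of the 8 genes, the exception being Otud1; over all genes tested this share was 8.42%. In IKKβ-/- mice they did not overlap for 6 of 8, the exceptions being Gm12840 and AC160336.1, against 5.29% of all genes. Because these contrasts chose the genes, nothing is read from those counts. Mean levels were lower with Ang II for 5 genes and higher for 3 in both genotypes. The smallest log2 differences were -0.57 for Otud1 in IKKβ+/+ and 0.47 for AC160336.1 in IKKβ-/- mice, both with overlapping groups.

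**Figure D1:**
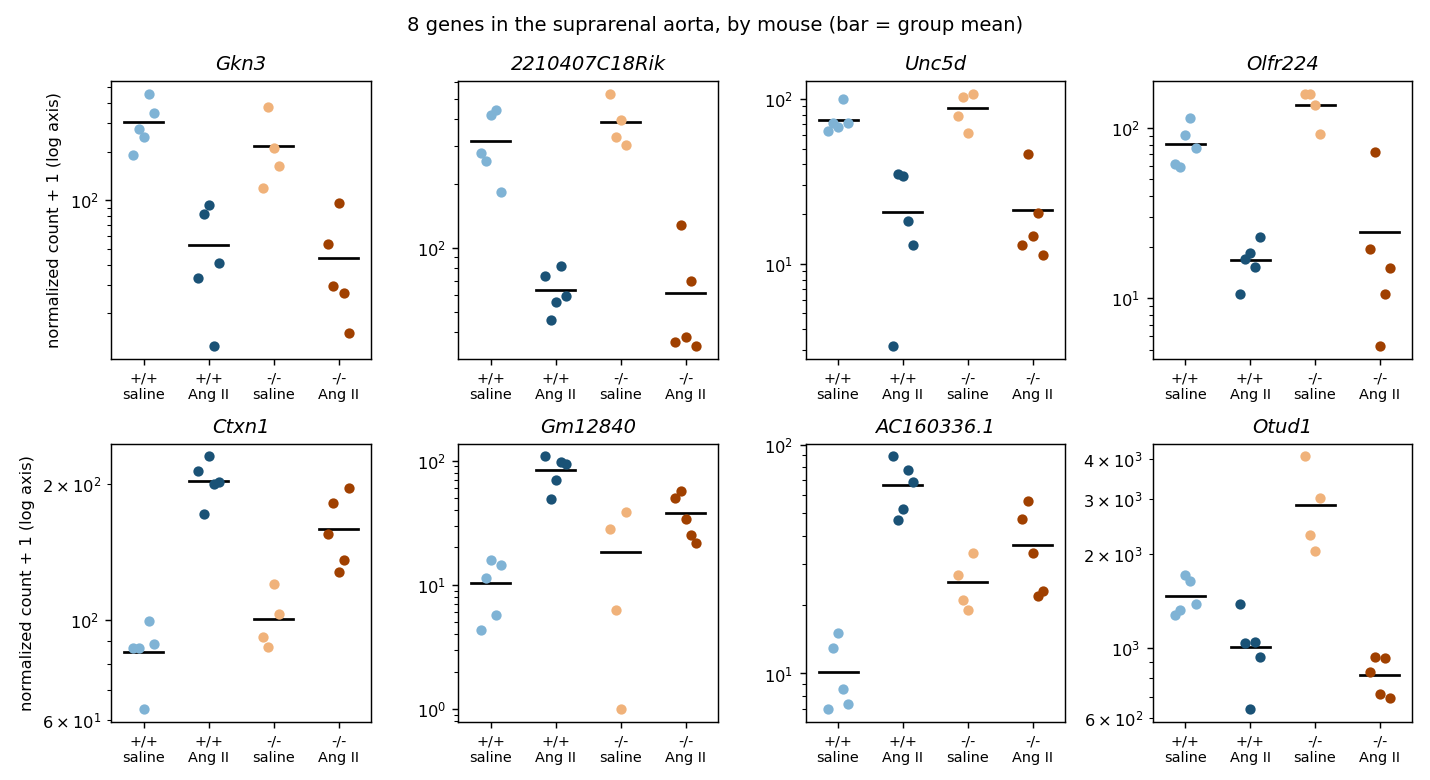
Normalized count + 1 (log axis) of the 8 genes in each of 19 mice, by genotype (IKKβ+/+ or IKKβ-/-) and infusion; points are mice and bars are group means. Gkn3, 2210407C18Rik, Unc5d and Olfr224 sat lower and Ctxn1 higher with Ang II in both genotypes without overlap, while AC160336.1 and Otud1 differed between the 2 saline groups.

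Gkn3 (chr6:87383256-87388935, minus strand) had the lowest Ang II to saline ratio of the 8 genes in IKKβ+/+ mice. The IKKβ+/+ saline mice had 189.7, 277, 245, 457 and 345 normalized counts, and the Ang II mice 32.1, 81.1, 93.2, 11.5 and 39.8. The IKKβ-/- mice had 118, 378, 209 and 162 with saline and 52.7, 28.6, 95.1, 25.7 and 14.1 with Ang II. Every Ang II mouse of either genotype was below every saline mouse, although the Ang II mice spread widely, from 11 to 90 reads in IKKβ-/-. The log2 difference was -2.79 (SE 0.50) in IKKβ+/+ and -2.45 (SE 0.54) in IKKβ-/-.

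Since Gkn3 marks arterial endothelium, a list of 11 arterial endothelial genes is given beside it. In IKKβ+/+ mice 3 of the 11 fell with Ang II, namely Efnb2 (-0.48, SE 0.16, adjusted p = 0.0976), which encodes an ephrin ligand of arteries, Fbln5 (-1.03, SE 0.15, adjusted p = 0.000988), an elastic fibre protein, and Bmx (-1.18, SE 0.32, adjusted p = 0.0419), an endothelial kinase. Called here means a limma p adjusted over all genes below 0.1 and a fold above 1.2, which 8.66% of all genes met in this contrast. In IKKβ-/- mice only Fbln5 of the list fell (-0.79, SE 0.15, adjusted p = 0.0102), against 5.29% of all genes. The median log2 difference over the list was -0.59 in IKKβ+/+ and -0.36 in IKKβ-/-, beside medians over all genes of 0.01 and -0.00. The call of Efnb2 was lost in 14 of 25 alternatives, 12 of them single mice left out, and that of Bmx without X2350, X2358 or X2376, while Fbln5 was called in all 25.

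Fbln5 alone made up 52.7% to 74.4% of the list's sum, so the sum was also taken without it. It was then 7839 to 8509 in IKKβ+/+ saline and 4684 to 7149 in IKKβ+/+ Ang II mice, and overlapped between infusions in IKKβ-/- mice (5446 to 9506 with saline, 4074 to 8608 with Ang II). Per 1000 counts of that sum, Gkn3 stood at 23.6 to 53.8 in IKKβ+/+ saline mice and at 2.41 to 14.2 with Ang II. In IKKβ-/- mice the ratio was 15.7 to 39.8 with saline, and its highest Ang II value, 15.9, reached just into that range. After this division the log2 difference was -2.31 in IKKβ+/+ and -2.22 in IKKβ-/-. In the wider list of 12 endothelial genes, Tek and Cldn5 fell in IKKβ+/+ and Kdr rose in IKKβ-/- mice, with medians of -0.67 and -0.22. Kdr was called in 10 of 25 alternatives, Tek lost its call without X2358, and Cldn5 without X2350, X2358 or X2373. In whole vessel, fewer cells of a type and less RNA per cell cannot be told apart.

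The chromosome 11 pair moved in parallel. 2210407C18Rik had 278, 255, 419, 441 and 182 normalized counts in IKKβ+/+ saline and 72.8, 44.8, 54.8, 81.2 and 58.6 in IKKβ+/+ Ang II mice. Its counts in IKKβ-/- mice were 527, 329, 395 and 302 with saline and 35.1, 126, 37.0, 69.0 and 33.4 with Ang II. The groups were apart in both genotypes, and mouse X2383, at 126, was the highest of the Ang II mice. The log2 difference was -2.27 (SE 0.32) in IKKβ+/+ and -2.84 (SE 0.34) in IKKβ-/-.

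Olfr224 had 60.6, 58.0, 89.9, 113 and 74.9 normalized counts in IKKβ+/+ saline and 9.64, 16.0, 17.6, 14.3 and 21.9 in IKKβ+/+ Ang II mice. Corresponding IKKβ-/- values were 158, 158, 135 and 90.7 with saline and 18.5, 71.4, 4.23, 9.63 and 14.1 with Ang II. The groups were again apart, and X2383 again stood highest, at 71.4, above some IKKβ+/+ saline mice. The log2 difference was -2.25 (SE 0.46) in IKKβ+/+ and -3.02 (SE 0.49) in IKKβ-/-, and the latter was -3.56 without X2383.

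Over the 19 mice the 2 genes correlated with r = 0.91 on the log2 scale, and r = 0.56 remained for the deviations from the group means. Genes that are not their neighbours came as close, such as Dkk3 with 2210407C18Rik (0.91 and 0.57) and Thbs2 with Olfr224 (0.90 and 0.76). These are descriptions, since the points share the group differences and, within a mouse, 1 library. Of the genes on either side, Olfr329, another odorant receptor gene, averaged 13.5 ± 7.05 with saline and 3.85 ± 3.38 with Ang II in IKKβ+/+ mice (n = 5 each; log2 difference -1.87, adjusted p = 0.152), and 13.7 ± 5.87 (n = 4) and 3.07 ± 4.67 (n = 5) in IKKβ-/- mice. It fell in IKKβ-/- mice, with a log2 difference of -2.57 (SE 0.78, limma adjusted p = 0.0817). That call was lost when only the groups compared were fitted, in edgeR, in DESeq2 and without any 1 of X2376, X2380, X2385, X2386, X2401, X2403 or X2406 (adjusted p 0.0381 to 0.236 over 25 alternatives). Trim58, a ubiquitin ligase gene known from red blood cell precursors, had means of 16.2 and 7.09 in IKKβ+/+ and of 26.2 and 8.50 in IKKβ-/- mice, and neither difference passed the threshold (adjusted p = 0.273 and 0.142). Erythroid markers were called in neither Ang II contrast (0 of 5 genes).

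**Figure D2:**
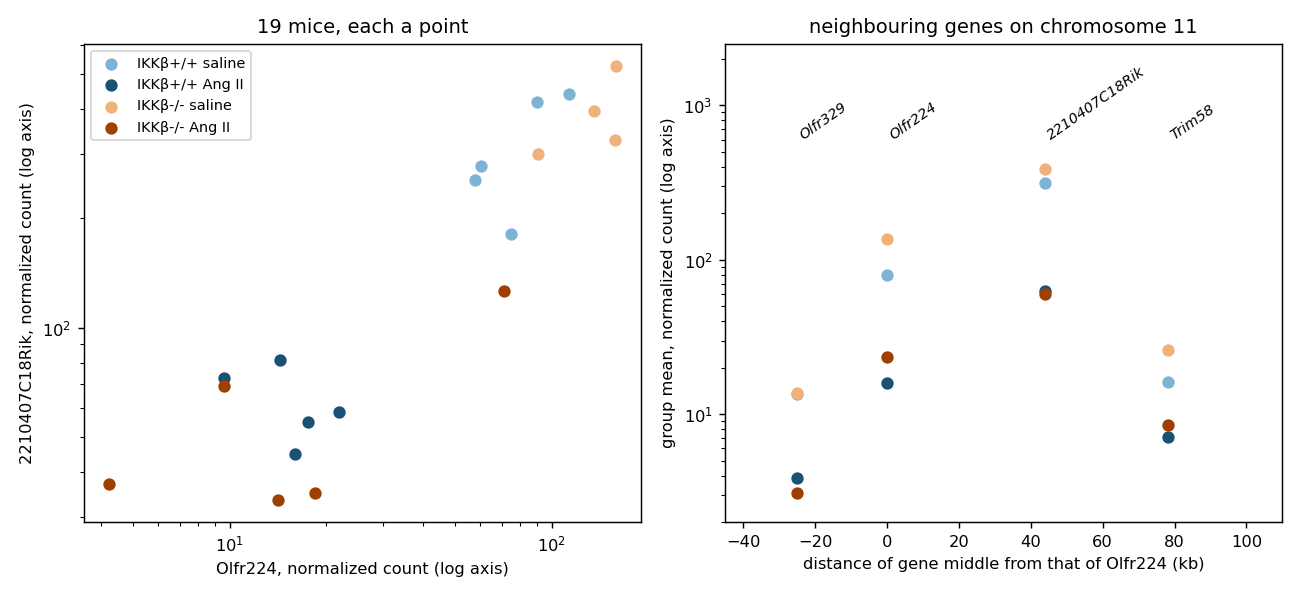
Left, normalized counts (log axes) of Olfr224 and 2210407C18Rik in each of 19 mice, coloured by group; right, group mean normalized counts (log axis) of Olfr329, Olfr224, 2210407C18Rik and Trim58 by distance in kb from the middle of Olfr224. Saline mice sit upper right and Ang II mice lower left, with mouse X2383 between them, and the means of all 4 genes are lower with Ang II.

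Unc5d (chr8:28646717-29219636, minus strand) was lower with Ang II in both genotypes. IKKβ+/+ saline mice had 62.6, 70.7, 67.0, 98.7 and 70.1 normalized counts and IKKβ+/+ Ang II mice 2.14, 34.2, 32.9, 17.2 and 11.9, the lowest resting on 2 reads. IKKβ-/- mice had 78.2, 102, 61.3 and 107 with saline and 12.01, 45.2, 13.7, 19.3 and 10.3 with Ang II. No Ang II mouse reached the saline range, and X2383 was once more the highest of its group. The log2 difference was -2.26 (SE 0.50) in IKKβ+/+, or -1.68 without X2350, and -2.24 (SE 0.54) in IKKβ-/-, and the difference between these, 0.02, had an interval of -1.52 to 1.56. Unc5d lies 5.94 Mb from Ikbkb on chromosome 8, and Ctxn1 18.4 Mb.

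The ligands and receptors related to Unc5d (netrins, other UNC5 receptors, FLRT proteins and their partners, 15 tested without Unc5d) gave few calls. In IKKβ+/+ mice Ntn1, which encodes netrin-1, fell by 0.51 (SE 0.16, limma adjusted p = 0.0685) and its receptor gene Unc5c fell by 0.98 (SE 0.27, adjusted p = 0.0433) on the log2 scale, and none rose. Among IKKβ-/- mice Flrt1 fell by 1.02 (SE 0.32, adjusted p = 0.0897) and Flrt3 rose by 1.12 (SE 0.32, adjusted p = 0.0633). Both of the last calls were lost when only the groups compared were fitted, and Flrt1 kept its call in 10 of 25 alternatives and Flrt3 in 19. Ntn1 was called in 19 of 25, and Unc5c lost its call without X2350 or X2378. The list's median was -0.23 in IKKβ+/+ and -0.08 in IKKβ-/-.

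Ctxn1 (chr8:4257660-4259274, minus strand) was the one protein-coding gene of the 8 that was higher with Ang II. IKKβ+/+ saline mice had 85.9, 85.7, 62.6, 98.7 and 87.7 normalized counts and IKKβ+/+ Ang II mice 213, 171, 229, 199 and 201. IKKβ-/- mice had 90.7, 86.4, 119 and 102 with saline and 154, 180.2, 127, 135 and 195 with Ang II. Replicates were tight, with an SD of 10.6% of the mean in IKKβ+/+ Ang II mice, the lowest of all groups of the 8 genes, and the infusions were apart in both genotypes. The log2 difference was 1.27 (SE 0.16) in IKKβ+/+ and 0.66 (SE 0.16) in IKKβ-/-.

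Because Ctxn1 is known from neurons, 13 sympathetic neuron genes were summed beside it. The sum was 1071 to 1383 in IKKβ+/+ saline mice and 1296 to 12730.2 in IKKβ+/+ Ang II mice. X2356 was highest, with 825 normalized counts of Th and 1674 of Dbh, the enzymes of noradrenaline synthesis. X2350 (2850) and X2358 (1665) were also above every IKKβ+/+ saline mouse. Of 6 list genes tested, 1 rose with Ang II in IKKβ+/+ and 0 in IKKβ-/- mice, against calls for 8.66% and 5.29% of all genes. The list medians were 1.18 and -0.21, and the part of neuron content was not tested. In IKKβ-/- mice the sum was 1012 to 1568 with saline and 1024 to 1305 with Ang II, while Ctxn1 was higher with Ang II. Without X2356 the log2 difference of Ctxn1 in IKKβ+/+ mice was 1.22. The other cortexin genes offered no comparison, since 1 of the 2 was in the matrix and neither was tested. Of the genes beside Ctxn1, Timm44, a mitochondrial import gene 0.457 kb away, had log2 differences of 0.13 and 0.04, and Snapc2, a transcription factor subunit gene 1.44 kb away, had 0.20 and 0.21.

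Of the 8, the lincRNAs were the genes with the largest Ang II to saline ratios above 1 in IKKβ+/+ mice. Gm12840 had 3.33, 10.3, 14.98, 4.75 and 13.5 normalized counts in IKKβ+/+ saline and 107, 48.0, 69.1, 96.5 and 92.4 in IKKβ+/+ Ang II mice. The IKKβ-/- mice stood at 27.02, 5.27, 0 and 37.7 with saline and 49.0, 56.4, 32.8, 24.1 and 20.6 with Ang II. The infusions were far apart in IKKβ+/+ and overlapped in IKKβ-/- mice, where the saline values ran from 0 reads in X2406 to 52 in X2409. The log2 difference was 3.13 (SE 0.70) in IKKβ+/+ and 1.95 (SE 0.74) in IKKβ-/-, the latter resting on single saline mice, since it was 0.88 without X2406 and 2.64 without X2409.

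AC160336.1 had 5.99, 11.9, 14.1, 7.60 and 6.38 normalized counts in IKKβ+/+ saline and 87.8, 45.9, 51.6, 76.4 and 67.6 in IKKβ+/+ Ang II mice. Among IKKβ-/- mice the counts were 26.1, 20.02, 18.02 and 32.7 with saline and 46.2, 55.6, 32.8, 20.9 and 21.9 with Ang II. The IKKβ-/- saline mice were above all IKKβ+/+ saline mice, and the IKKβ-/- Ang II mice overlapped with the IKKβ-/- saline and the IKKβ+/+ Ang II mice. The log2 difference with Ang II was 2.74 (SE 0.32) in IKKβ+/+ and 0.47 (SE 0.34) in IKKβ-/-, and the difference between the genotypes in this effect was -2.28, with an interval of -3.25 to -1.31. The same difference was -1.19 (interval -1.75 to -0.62) for Otud1 and -0.61 (interval -1.08 to -0.14) for Ctxn1, while the intervals of the remaining genes held 0. As these contrasts are built from those that chose the genes, they stand as descriptions.

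The lincRNAs varied together, with r = 0.79 over the 19 mice and 0.63 for deviations from the group means, on counts that may share reads. Gm20186, whose transcript matched Gm12840 at 97.5% over 628 columns, was measured as well. It averaged 11.1 ± 2.32 in IKKβ+/+ saline, 42.7 ± 11.3 in IKKβ+/+ Ang II (n = 5 each), 14.5 ± 4.24 in IKKβ-/- saline (n = 4) and 23.0 ± 11.2 in IKKβ-/- Ang II mice (n = 5). It rose in IKKβ+/+ mice by 1.84 (SE 0.33, limma adjusted p = 0.00571), while the difference in IKKβ-/- mice was 0.54 (adjusted p = 0.444). The genes next to Gm12840 included Dmap1, a chromatin protein gene, at -0.03 and -0.02. Beside AC160336.1, Txndc16, a thioredoxin-domain gene, fell in IKKβ+/+ mice with a log2 difference of -0.60 (adjusted p = 0.0902), a call lost in 12 of 25 alternatives, among them edgeR, no filter on low values and 10 single mice left out.

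**Figure D3:**
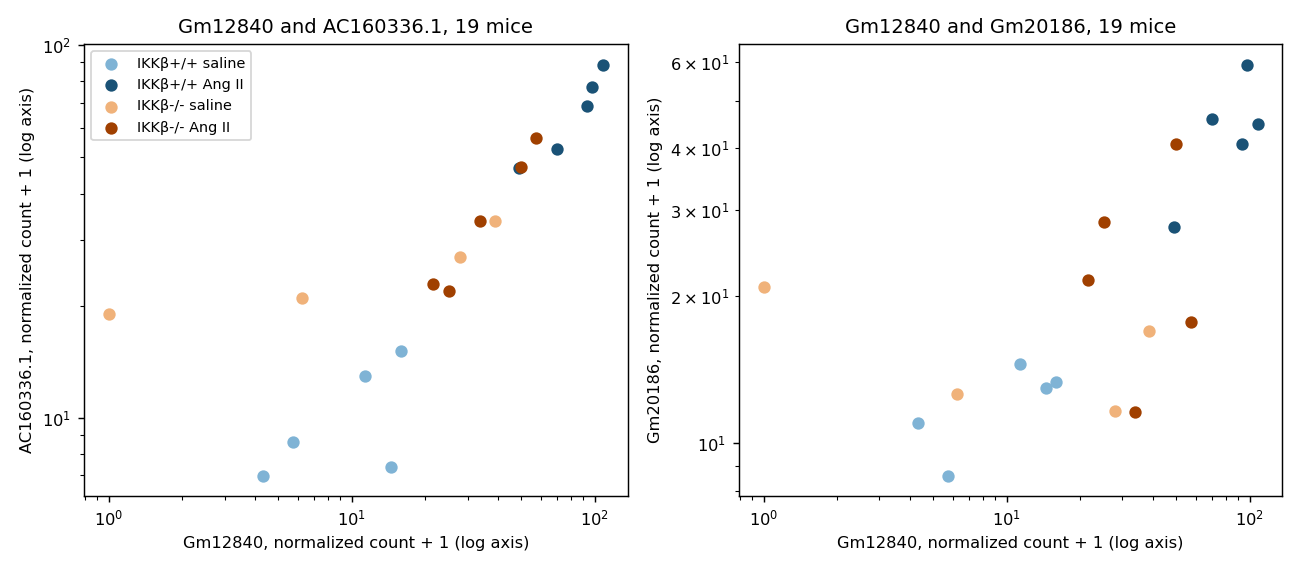
Normalized count + 1 (log axes) of Gm12840 against AC160336.1 (left) and against Gm20186 (right) in 19 mice, coloured by group. IKKβ+/+ Ang II mice sit at the upper right of both panels, IKKβ+/+ saline mice at the lower left, and the point at a Gm12840 count of 0 is mouse X2406.

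Otud1 (chr2:19657752-19660583, plus strand, a single exon) was, with AC160336.1, 1 of the 2 genes whose saline groups were apart between genotypes. IKKβ+/+ saline mice had 1276, 1322, 1715, 1630.2 and 1376 normalized counts and IKKβ+/+ Ang II mice 1381, 1039, 637, 1047 and 934. IKKβ-/- mice had 4089, 2299.8, 2036 and 3014 with saline and 840.1, 937, 713, 925 and 692 with Ang II. Every IKKβ-/- saline mouse was above every other mouse of the study, and with Ang II the genotypes overlapped. The log2 difference with Ang II was -0.57 (SE 0.19) in IKKβ+/+, where X2350 at 1381 lay within the saline range, and -1.76 (SE 0.20) in IKKβ-/-.

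The saline mice also differed in genes of the circadian clock, measured as a list of 14. With saline and all mice, 9 of the 14 were higher and 3 lower in IKKβ-/- than in IKKβ+/+ mice, among them Per1 (log2 difference 1.56, SE 0.35, limma adjusted p = 0.0464), a repressor of the clock, and Arntl (-2.93, SE 0.60, adjusted p = 0.0367), its activator. Many of these saline calls were lost when single mice were left out. The count of 12 became 0 without X2406, 3 without X2403, 5 without X2370 and 6 without X2373. Calls over all genes fell as well, from 812 to 24, 66, 185 and 112 in the same order. The loss was thus not particular to the clock genes. With Ang II in IKKβ-/- mice 8 fell and 3 rose, and in IKKβ+/+ mice 1 fell. The list's sum was 7377 to 19148 in IKKβ+/+ saline and 18345 to 26233 in IKKβ-/- saline mice. With Ang II it was 8011 to 9736 in IKKβ+/+ and 9750.0 to 13769 in IKKβ-/- mice. The group with the highest Otud1 thus also reached the highest sum of these genes. Within that group, however, X2406 had the highest sum, 26233, and the lowest Otud1, 2036. Per 1000 counts of the sum, Otud1 stood at 79.3 to 179 in IKKβ+/+ saline and at 77.6 to 196 in IKKβ-/- saline mice. With Ang II these ratios were 79.6 to 150 in IKKβ+/+ and 59.3 to 94.9 in IKKβ-/- mice. Of 10 glucocorticoid target genes, 2 (Per1 and Klf9) were higher in IKKβ-/- saline mice, neither of them without X2406, 5 rose with Ang II in IKKβ+/+ mice, and 1 rose and 2 fell in IKKβ-/- mice. The part of the clock and glucocorticoid genes in the result was not tested. Leukocyte markers were lower in IKKβ-/- saline mice (4 of 7 tested, but 0 without X2373), and their part was not tested either.

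**Figure D4:**
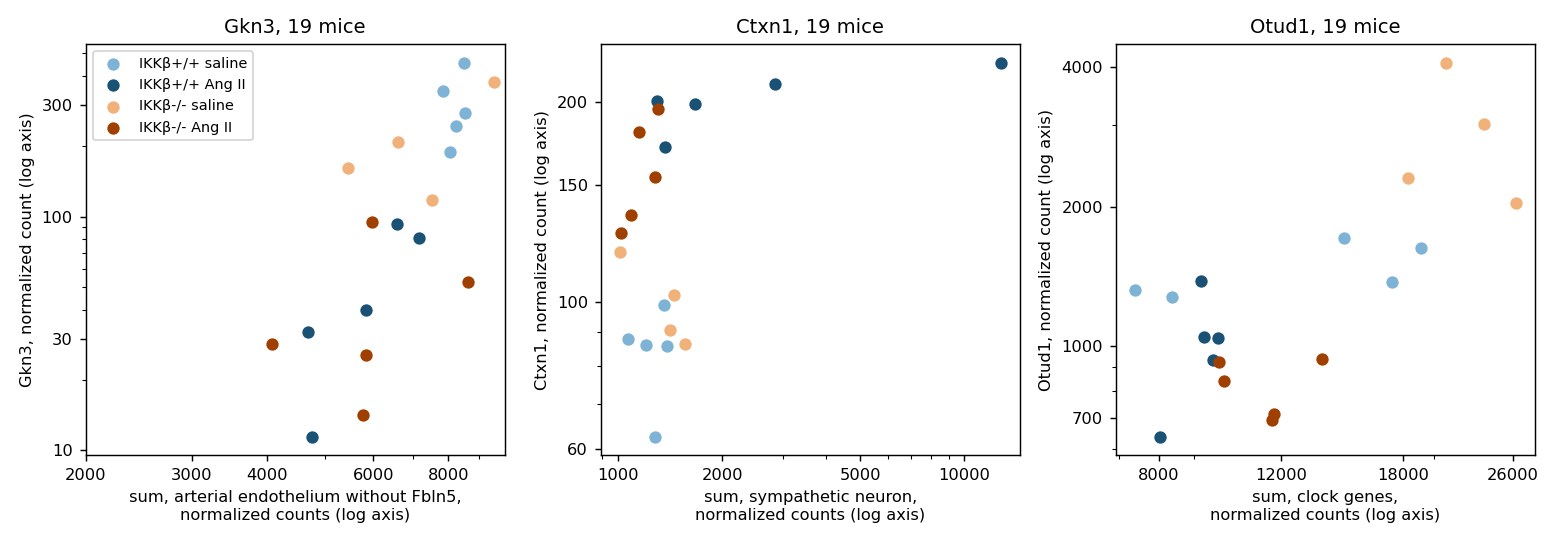
Normalized counts (log axes) of Gkn3, Ctxn1 and Otud1 in 19 mice against the summed normalized counts of arterial endothelial genes without Fbln5, of sympathetic neuron genes and of clock genes, coloured by group. In IKKβ+/+ mice the arterial sums of the infusions do not overlap and in IKKβ-/- mice they do, the neuron sum is highest in the IKKβ+/+ Ang II mouse X2356, and the IKKβ-/- saline mice are highest in Otud1 at clock sums of 18345 to 26233.

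The other deubiquitinases of the OTU family (13 tested without Otud1) did not move as a family, with medians of 0.02 and -0.02 for Ang II in IKKβ+/+ and IKKβ-/- and 0.07 between genotypes with saline. Zranb1, which encodes the deubiquitinase Trabid, followed Otud1, being higher in IKKβ-/- than IKKβ+/+ mice with saline (0.72, SE 0.14, limma adjusted p = 0.0367) and lower with Ang II in IKKβ-/- mice (-0.59, SE 0.14, adjusted p = 0.0270). Both calls were lost without X2406, and the latter also when only the groups compared were fitted. Tnfaip3, which encodes A20, an NF-κB target that restrains the pathway, was lower in IKKβ-/- saline mice (-0.96, SE 0.23, adjusted p = 0.0512), a call lost without X2370, X2373 or X2403. Neither gene next to Otud1, Msrb2 or Etl4, was called in any comparison.

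The genotype comparison was tested for all 8 genes. With saline 2 of 8 were called, where 5.47% of all genes were. The same saline mice entered the contrasts that chose the genes, which can favour such a call. Nothing is therefore read from this count beside that share. Otud1 was higher in IKKβ-/- mice by 0.92 on the log2 scale (interval 0.51 to 1.34, limma adjusted p = 0.0367), and higher in 4 of 4 mice than in any IKKβ+/+ mouse. AC160336.1 was higher by 1.34 (interval 0.63 to 2.05, adjusted p = 0.0556), again in 4 of 4 mice. These were the 2 genes of the 8 whose saline groups did not overlap, against 8.76% of all genes. The call for AC160336.1 was lost when X2370, X2376, X2401, X2403 or X2406 was left out (adjusted p = 0.113, 0.101, 0.104, 0.116 and 0.132), while Otud1 kept its call under each of 25 alternatives (adjusted p 0.000792 to 0.0874).

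The other 6 genes missed the threshold with saline, with adjusted p of 0.403 to 0.993. Among them Olfr224 had a difference of 0.78 with an interval of -0.25 to 1.80, and it was called when only the groups compared were fitted (adjusted p = 0.0853). Gkn3 differed by -0.55 (interval -1.67 to 0.57) and Gm12840 by -0.02 (interval -1.57 to 1.53), ranges that leave room for differences of more than 1 log2 unit. The interval was narrowest for Ctxn1, -0.10 to 0.59.

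With Ang II, 0 of 8 genes were called between genotypes by limma, against 0.128% of all genes. On the recovered reads 0 were called by edgeR, and 0 by DESeq2, which called 521 of 14845 genes in this contrast. At an unadjusted p under 0.05, which 14.3% of all genes met, there were 2 of 8, AC160336.1, lower in IKKβ-/- mice (-0.94, interval -1.60 to -0.27, adjusted p = 0.218), and Ctxn1, lower as well (-0.37, interval -0.69 to -0.04, adjusted p = 0.293). The intervals of Gkn3 (-1.27 to 0.84), 2210407C18Rik (-0.89 to 0.44), Unc5d (-0.81 to 1.29) and Olfr224 (-0.96 to 0.97) all held 0.

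**Figure D5:**
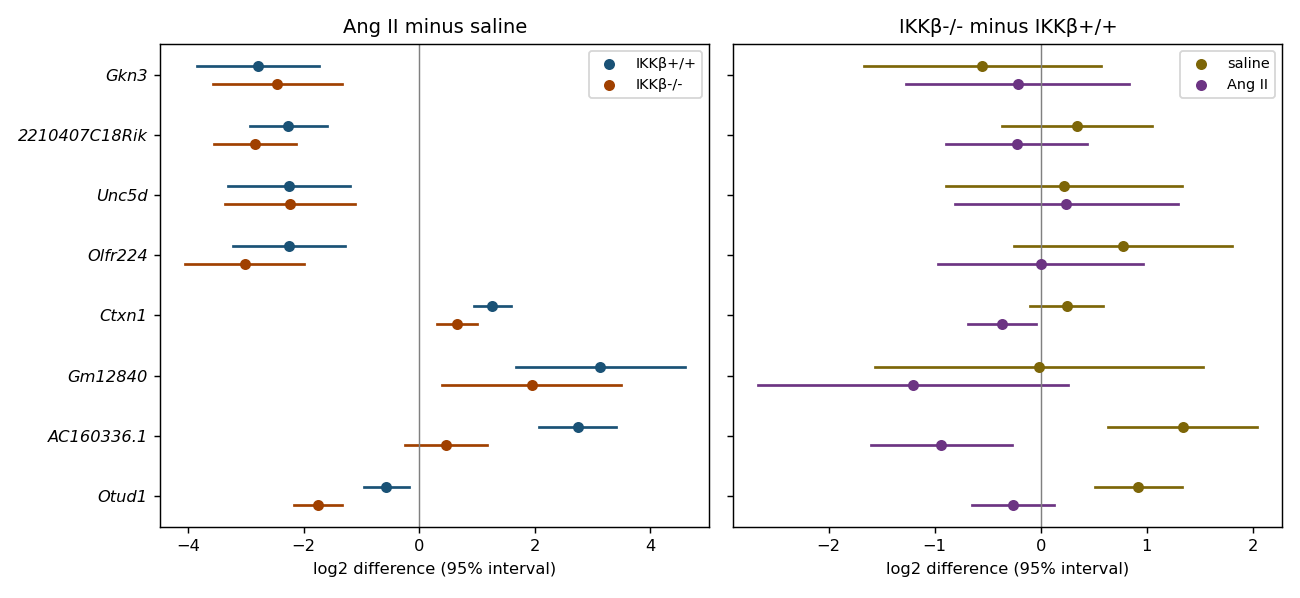
Log2 differences of the 8 genes with 95% intervals from the limma fit, left for Ang II minus saline in each genotype and right for IKKβ-/- minus IKKβ+/+ with each infusion. Intervals for Otud1 and AC160336.1 with saline lie above 0 on the right, and those for AC160336.1 and Ctxn1 with Ang II lie below 0, before adjustment over all genes.

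Per kb of exon, the order of mean levels in IKKβ+/+ saline mice was Otud1 (517 normalized counts per kb), Gkn3 (354), 2210407C18Rik (225), Ctxn1 (69.4), Olfr224 (37.3), Gm12840 (14.97), Unc5d (8.01) and AC160336.1 (0.0987). Gkn3 and 2210407C18Rik, neighbours in this order, had replicate SDs of 33.96% and 35.24% of their means, so their order is not firm. The low place of AC160336.1 rests on its annotated exon of 93147 bases. With Ang II in IKKβ+/+ mice Gm12840 stood at 132 and Ctxn1 at 167 per kb, above Gkn3 (60.2) and 2210407C18Rik (44.7).

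The kin of Gkn3 and Olfr224 were read in the same way. Of 4 tested BRICHOS-domain genes, Itm2b, which encodes an integral membrane protein, fell in IKKβ+/+ mice by 0.77 (SE 0.18, limma adjusted p = 0.0195), with a list median of -0.74 in IKKβ+/+ and -0.06 in IKKβ-/-. Beside Gkn3, Antxr1, an anthrax toxin and collagen receptor gene, fell in IKKβ+/+ mice with a log2 difference of -0.69 (adjusted p = 0.0171). Of 8 tested odorant receptor genes other than Olfr224, Olfr1033 rose in IKKβ+/+ mice by 1.51 (SE 0.21, adjusted p = 0.000988). Olfr629 was called too, but it was listed at 0 in 4 of 5 IKKβ+/+ saline mice and at 9768 in X2378, so no fold is given. Odorant receptor genes thus went either way, with list medians of -0.25 in IKKβ+/+ and 0.38 in IKKβ-/- mice.

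The genes most like each of the 8 in pattern were sought by Pearson's r of log2 values over the 19 mice, a description in which the points share the group differences. Gkn3 was nearest to Lrrc3b (0.92), Sox13 (0.91) and Adra2a (0.90), 2210407C18Rik to Dkk3 (0.91), Olfr224 (0.91) and Angptl2 (0.89), and Olfr224 to 2210407C18Rik (0.91), Cpe (0.91) and Thbs2 (0.90). Unc5d was nearest to Lsmem1 (0.89), Calcrl (0.88) and Wif1 (0.88). Of the genes higher with Ang II, Ctxn1 was nearest to Prg4 (0.84) and Fam149b (0.83), Gm12840 to Sec61a1 (0.87), Cyb5r1 (0.86) and Tmem97 (0.85), and AC160336.1 to Olfr1033 (0.91), S100a6 (0.90) and Brsk1 (0.90). Otud1 was nearest to Zfand5 (0.94), Bambi (0.91) and Dusp16 (0.89), and Zfand5, a zinc finger gene linked to the proteasome, averaged 1541 ± 123 in IKKβ+/+ saline (n = 5) and 2019 ± 204 in IKKβ-/- saline mice (n = 4), a difference of 0.39 (SE 0.09, limma adjusted p = 0.0516) that lost its call without X2370, X2401, X2403 or X2406.

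When the group means were removed, other genes came first. The highest r of deviations was with Imp3 for Gkn3 (0.86), Smarca5 for 2210407C18Rik (0.84), Cep131 for Unc5d (0.83) and Rab11b-ps2 for Olfr224 (0.82). It was with Neu2 for Ctxn1 (0.83), Rab4b for Gm12840 (0.89), Qsox2 for AC160336.1 (0.88) and Zfp568 for Otud1 (0.87).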

How the data were processed

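Suprarenal aorta RNA of 19 mice was sequenced by the authors as stranded, poly(A)-selected libraries read from a single end on a NextSeq500. Per the paper's methods and the submitters' processing notes, reads were trimmed with Trimmomatic 0.35 and aligned to GRCm38 with STAR 2.7.1a, which also gave gene read counts, and those counts were normalized with DESeq2 1.30.1. RSEM, named for TPM values, is not used here. The deposited values are normalized counts, a signal scaled by size factors, and 100.0% of them were whole reads (within 0.02) after division by the value of 1 read in that mouse. Depth was 11382573 to 19906694 reads on genes.

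The 14845 of 20408 genes that reached a normalized count of 10 in 4 mice or more were fitted with limma 3.58.1 (R 4.3.3) on log2(normalized count + 1), with 4 group means in 1 fit, a mean-variance trend and Benjamini-Hochberg adjustment over all genes. A call needed an adjusted p under 0.1, two-sided, and a fold above 1.2. Also run were fits of the compared groups alone, with TMM scaling, with a pseudocount of 4 and over the unfiltered table, edgeR 4.0.16 and DESeq2 1.42.0 on the recovered reads, and fits that left out each mouse in turn. Mice are the replicates. The methods were run on simulated counts in which all genes had the same set dispersion. These data differ from that setting, with replicate SDs of the 8 genes from 10.6% to 116% of the mean. The simulation is therefore no check on calls of single genes here. The 8 genes and all lists were chosen with earlier results of these data known. Genes named are the 8, Ikbkb, the 3 with the highest r for each and the one with the highest r of deviations, the nearest tested neighbours, and the called genes of the kin lists; a gene that this rule also gives is not reported here.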

Additional observations from a re-analysis of the deposited data

Results flagged for a closer look

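In 3 of 32 groups (8 genes in 4 groups of 4 or 5 mice), 1 mouse stood apart from the others by Dixon's criterion, which chance alone meets in about 1 group in 20. Unc5d had 98.7 normalized counts in mouse X2376, against 62.6 to 70.7 in the other IKKβ+/+ saline mice. Mouse X2383 of the IKKβ-/- Ang II group stood apart in Unc5d, at 45.2, and in Olfr224, at 71.4. It was also the highest of its group in 2210407C18Rik, Gm12840 (56.4), AC160336.1 (55.6) and Otud1 (937), but not in Gkn3 or Ctxn1. It was thus highest in genes that were lower with Ang II and in genes that were higher. Without X2383 the log2 difference with Ang II in IKKβ-/- mice was -2.57 for Unc5d and -3.56 for Olfr224.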

How the results depend on the processing

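The Ang II differences of the 8 genes kept their direction under all alternatives run, including the division of Gkn3 by arterial endothelial genes, which was added after the data were seen. Genes of the 8 called between genotypes with saline ranged from 1 to 2 when single mice were left out (1 without X2370, X2376, X2401, X2403 or X2406) and were 3 when only the groups compared were fitted; with Ang II there were 0 throughout. Differences of genes that were not called changed sign in places. The saline genotype difference of Gm12840 was 0.24 with a pseudocount of 4, 0.99 in edgeR and 0.97 in DESeq2, and -0.71 to 1.04 with single mice left out. With Ang II the genotype difference ranged from -0.65 to 0.10 for Gkn3, -0.33 to 0.54 for Unc5d and -0.53 to 0.42 for Olfr224 with single mice left out, and was -0.00033 for Olfr224 with TMM scaling. In the IKKβ-/- Ang II contrast Gm12840 ranged from 0.99 to 1.95 over other settings. The cause was not tested.

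Counts over the whole table moved more. With single mice left out, Ang II calls ranged from 431 to 1918 in IKKβ+/+ (1286 with all mice) and from 433 to 1082 in IKKβ-/- (785), genotype calls from 24 to 1727 with saline (812) and from 0 to 553 with Ang II (19), and calls for the difference of the Ang II effects from 0 to 79 (0 with all mice by limma, with 1654 at an unadjusted p under 0.05). Fitting only the groups compared gave 295 calls for Ang II in IKKβ-/- mice, 1420 between genotypes with saline and 1 with Ang II. DESeq2 gave 1437, 521 and, for the difference of the effects, 279 calls, where edgeR gave 3. Genes called in the kin lists other than the odorant receptors ranged from 1 to 4, 1 to 6 and 1 to 3 in the IKKβ+/+ Ang II, IKKβ-/- Ang II and saline genotype contrasts when single mice were left out, and with only the groups compared fitted they were 0 of 3 for Ang II in IKKβ-/- mice and 4 for the saline genotype contrast. Depth limits the lincRNAs, Unc5d and Olfr224, whose lowest values rest on 0 to 8 reads. No paired analysis was possible because the mouse numbers are unique and no number is shared between groups.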
